A study of Mus musculus with 6 samples.

Results

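Voltage-gated calcium channels are built from several subunits, and 10 of their genes were followed here among the 26898 genes of an RNA-seq table from primary mouse embryonic fibroblasts (MEFs). The genes were found by symbol: Cacng7 for the gamma subunit family, Cacna1a, Cacna1c, Cacna1g and Cacna1h for the pore, Cacna2d1 and Cacna2d2 for the alpha2delta subunits, and Cacnb1, Cacnb2 and Cacnb3 for the beta subunits. The set was selected on measured values of these samples, since Cacng7 is well expressed in WT cells and fell strongly in KO cells. The fall of Cacng7 is therefore given as a description without a test, and the other 9 genes are described with tests where their level allowed it. Of the 10 genes, 8 reached an average of 1 TPM (a level per exon length, brought to an equal sum in every sample) in WT or KO cells and were tested. Cacnb2 and Cacna2d2 stayed under that level and are given as values only.

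Expression was measured in 3 WT and 3 KO samples of MEFs from C57BL/6 embryos, taken at passage 3. WT cells (WT 4, WT 5 and WT 8) were Kansl1fl/fl, with both Kansl1 alleles flanked by recombination sites and with no Cre. KO cells (KO 3, KO 7 and KO 10) were Kansl1fl/fl/CAG-cre, carrying a tamoxifen-inducible Cre under the ubiquitously active CAG promoter. Both groups received 1 μM tamoxifen for 48 h. Since WT cells had no Cre, the loss of Kansl1 and the presence of active Cre cannot be told apart. The study names 3 mice per group, and the numbers in the sample names link no WT sample to a KO sample. The comparison addressed which genes change in expression when Kansl1, a subunit of a histone acetyltransferase complex, is deleted.

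In a voltage-gated calcium channel, the alpha1 subunit forms the pore and the voltage sensor and decides the channel type, L-type and P/Q-type channels opening at strong and T-type channels at weak depolarisation. The intracellular beta subunit and the largely extracellular alpha2delta subunit bring alpha1 to the cell surface and adjust its gating. Cacng7 belongs to the gamma family by sequence, but its protein is best known as a TARP, a transmembrane protein that binds AMPA-type glutamate receptors and shapes their traffic and gating in the brain. In fibroblasts, L-type and T-type channels have been recorded, and beta and alpha2delta subunits occur in many cells that do not fire action potentials.

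Between 17655495 and 27718259 reads per sample were recovered from the TPM values, KO 3 being the shallowest and KO 7 the deepest, and between 13679 and 14268 genes per sample reached 1 TPM. Kansl1 stood at 28.5, 26.7 and 24.4 TPM in WT 4, WT 5 and WT 8 and at 13.7, 15.8 and 14.4 TPM in KO 3, KO 7 and KO 10, with a difference of -0.82 (SE 0.11, adjusted p = 0.000859, limma). All KO samples lay below all WT samples, the direction that the KO label implies, although this value counts all exons together and not the deleted ones alone. All differences are KO minus WT in log2(TPM + 1), where the change of a low gene comes out smaller than its ratio, and a gene was called at a Benjamini-Hochberg adjusted p under 0.005 with a difference past 0.5 in size. Fewer cells of a kind that expresses a gene and less RNA per cell cannot be told apart in such bulk samples.

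Cacng7 lies on chr7:3332955-3368221 on the plus strand (mm10), and its exons overlap those of no other annotated gene. The sequence before its start is shown because the fall of this gene is what the set was built around. The 250 bases upstream of the RefSeq start (GRCm38.p6, the same build as mm10) lie at chr7:3332575-3332824 and read as follows, 5′ to 3′ on the plus strand, with matches to the searched motifs in capitals.
Cacng7: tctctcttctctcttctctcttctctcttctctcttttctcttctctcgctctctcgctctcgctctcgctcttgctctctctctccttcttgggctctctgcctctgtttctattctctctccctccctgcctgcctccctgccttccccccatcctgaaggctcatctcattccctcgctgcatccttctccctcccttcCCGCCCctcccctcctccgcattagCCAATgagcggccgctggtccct
The first capitals mark a GC box (GGGCGG, here on the minus strand) and the second a CCAAT box (CCAAT, on the plus strand). Of 32851 windows of the same length before 27025 mouse genes, 32.7% held a GC box and 33.9% a CCAAT box on either strand. A TATA box (TATAAA) and an E-box (CACGTG) were matched nowhere in this window, against 12.4% and 6.02% of all windows. The GC content was 58.0%, above that of 66.8% of the windows, and the window held 9 CpG against a median of 6.

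Most of this window was made of pyrimidines, a feature looked at only after the sequence had been seen. C and T made up 84.0% of its plus strand, a share reached by 0.0183% of all windows. The longest run without a purine was 48 bases, against a median of 9, and 0.113% of windows had a run of that length or more. RefSeq windows were available for 7 of the 10 genes, with 12 windows among them, and 9 of the 12 had at least the median GC content of 52.4%. A GC box occurred in 7 and a CCAAT box in 3 of the 12, and a TATA box and an E-box in 0.

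Cacng7 was expressed at 36.2, 35.6 and 29.5 TPM in WT 4, WT 5 and WT 8, from 716, 763 and 683 reads. In KO 3, KO 7 and KO 10 it stood at 8.62, 10.1 and 8.58 TPM, from 153, 239 and 187 reads. All KO samples lay far below all WT samples, and the lowest WT value was 2.92 times the highest KO value. The mean was 33.8 ± 3.71 TPM in WT and 9.10 ± 0.870 TPM in KO (SD, n = 3 each), a WT to KO ratio of 3.71. KO cells thus kept 26.9% of the WT level, with 25.5%, 29.9% and 25.4% of the WT mean in KO 3, KO 7 and KO 10. Transcript was therefore lowered and not lost, with at least 153 reads in every KO sample.

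The difference was -1.78 on the log2(TPM + 1) scale and -1.89 as the log2 of the ratio of the TPM means. It was number 38 from the bottom among the 14799 tested genes. Among the 3671 genes with a WT mean at or above that of Cacng7, it was number 6 from the bottom. In WT cells 75.2% of the tested genes had a lower mean than Cacng7, and in KO cells 47.6% did, so that it went from among the higher tested genes to near their middle.

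**Figure D1:**
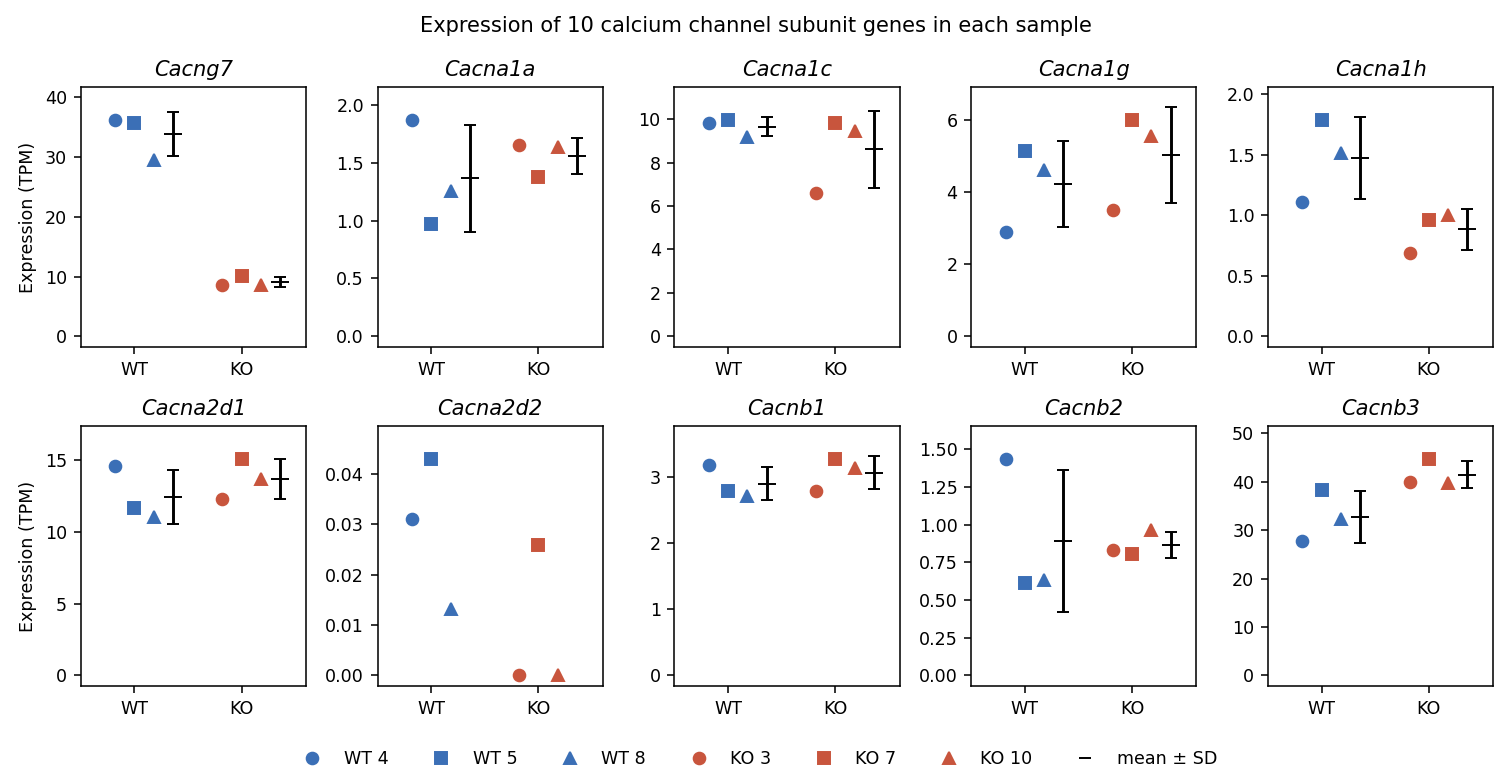
Expression in TPM (y axis, a separate scale for each panel) of the 10 channel subunit genes in WT samples (blue) and KO samples (red), with bars for the mean ± SD except for Cacna2d2, which rests on 0 to 3 reads per sample. Cacng7 fell from 29.5 to 36.2 TPM in WT to 8.58 to 10.1 TPM in KO, whereas the groups overlapped in all other panels but those of Cacnb3 and Cacna1h.

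**Figure D2:**
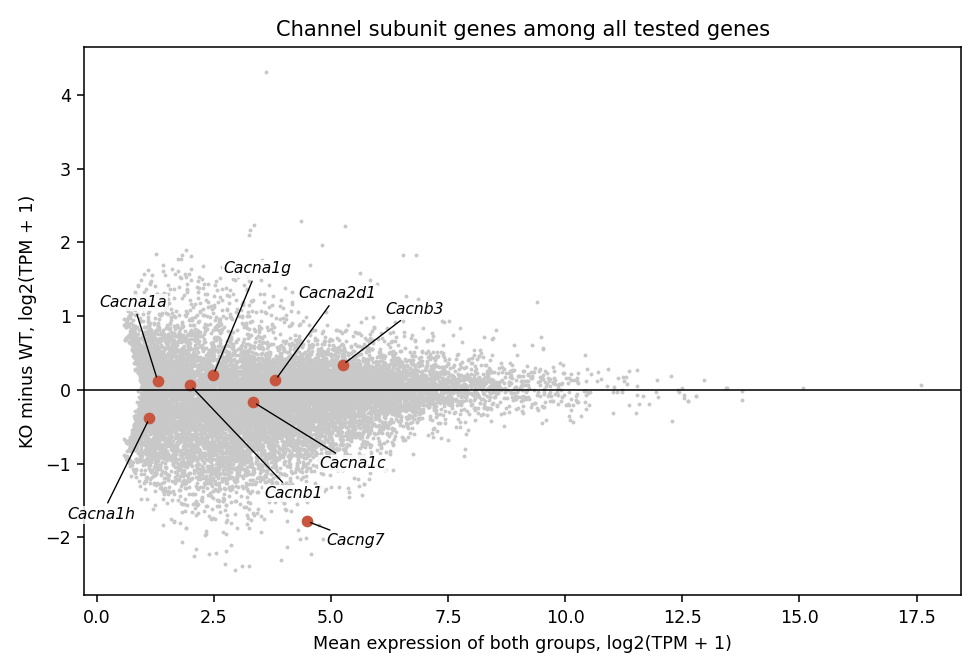
Difference KO minus WT on the log2(TPM + 1) scale (y axis) against the mean log2(TPM + 1) of the groups (x axis) for 14799 tested genes (grey), with the 8 tested channel subunit genes in red. Cacng7 lies at -1.78 and the other 7 genes between -0.39 and 0.34.

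None of the other 7 tested genes was called. There were 0 higher and 0 lower calls among them, against 10.7% of all tested genes called in either direction, 1.64% higher and 9.03% lower. Limma voom on recovered reads also called 0 of them, against 17.1% of the genes it tested. At an unadjusted p under 0.05, limma gave 1 higher (Cacnb3) and 0 lower, against 12.2% and 27.2% of all tested genes, 39.4% in either direction. KO samples lay above all WT samples for 1 gene (Cacnb3) and below all WT samples for 1 gene (Cacna1h), against 13.3% and 29.9% of all tested genes, 43.2% together. The median difference of the 7 genes was 0.13, beside -0.07 over all tested genes.

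Among the pore-forming alpha1 genes, Cacna1c (chr6:118587240-119196418, minus strand), which encodes the L-type channel of heart and smooth muscle, was the highest in both groups. It stood at 9.82, 9.97 and 9.17 TPM in WT and at 6.58, 9.81 and 9.45 TPM in KO. The groups overlapped, KO 3 alone lying below every WT sample. Means were 9.65 ± 0.425 and 8.61 ± 1.77 TPM (SD, n = 3 each), and the difference of -0.17 (SE 0.15, 95% interval -0.50 to 0.17) did not pass the test (adjusted p = 0.448).

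The T-type channel genes Cacna1g and Cacna1h, whose channels open near the resting potential, differed in direction. Cacna1g (chr11:94408391-94474198, minus strand) stood at 2.89, 5.14 and 4.62 TPM in WT and at 3.50, 6.00 and 5.56 TPM in KO, with overlapping groups. Its means were 4.21 ± 1.18 and 5.02 ± 1.33 TPM, and the difference was 0.21 (SE 0.22, 95% interval -0.29 to 0.70, adjusted p = 0.519). The lowest sample of each group, WT 4 and KO 3, was also the lowest of its group for Col1a1, the gene of the main fibroblast collagen chain, at 3080 and 4195 TPM against 4958 to 5809 TPM in the other samples; the part of such differences between cultures was not tested.

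Cacna1h (chr17:25374285-25433783, minus strand) was lower in all KO samples than in any WT sample, at 0.690, 0.962 and 0.998 TPM in KO against 1.11, 1.79 and 1.51 TPM in WT. These values rest on 49 to 91 reads in KO and 88 to 153 reads in WT, and 1.6% of its exon length is shared with Tpsg1 on the opposite strand. The KO mean was 60.1% of the WT mean. The difference of -0.39 (SE 0.20, 95% interval -0.83 to 0.06) did not pass the test (adjusted p = 0.181), and the adjusted p on recovered reads by limma voom was 0.0430 with a difference of -0.63.

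Cacna1a (chr8:84388440-84640246, plus strand), the P/Q-type pore of nerve terminals, was low in both groups. It stood at 1.87, 0.969 and 1.26 TPM in WT and at 1.65, 1.37 and 1.64 TPM in KO, from 97 to 173 reads, and the KO values lay within the WT range. The difference was 0.13 (SE 0.20, 95% interval -0.32 to 0.57, adjusted p = 0.671). An antisense gene, Gm16183, overlaps 3.8% of its exon length.

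Cacna2d1 (chr5:15934691-16374511, plus strand), the broadly expressed alpha2delta subunit and a binding site of gabapentin, carried nearly all alpha2delta expression. It stood at 14.6, 11.7 and 11.0 TPM in WT and at 12.2, 15.1 and 13.6 TPM in KO, with overlapping groups. Means were 12.4 ± 1.90 and 13.7 ± 1.41 TPM, and the difference was 0.13 (SE 0.14, 95% interval -0.17 to 0.44, adjusted p = 0.497). With limma voom it was 0.23 with an adjusted p of 0.0438, and was not called. Cacna2d2 (chr9:107399612-107529343, plus strand), a related subunit of the cerebellum, had 2, 3 and 1 reads in WT and 0, 2 and 0 reads in KO. The level that 3 reads would give was between 0.0390 and 0.0519 TPM, so a difference was not detectable at this depth.

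Cacnb3 (chr15:98630840-98644529, plus strand) was the most highly expressed beta subunit gene and the highest of all 10 genes in KO cells. It stood at 27.7, 38.3 and 32.2 TPM in WT and at 40.0, 44.8 and 39.7 TPM in KO, so that all KO samples lay above all WT samples, the nearest being KO 10 and WT 5. The mean went from 32.7 ± 5.29 to 41.5 ± 2.81 TPM, 127% of the WT mean. The difference of 0.34 (SE 0.13, 95% interval 0.05 to 0.63) was not called (adjusted p = 0.0755), and with limma voom it was 0.43 with an adjusted p of 0.0159.

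Cacnb1 (chr11:98001508-98023034, minus strand), the beta subunit of the skeletal muscle channel, stood at 3.19, 2.79 and 2.72 TPM in WT and at 2.79, 3.28 and 3.14 TPM in KO. The groups overlapped, and the difference was 0.06 (SE 0.14, 95% interval -0.26 to 0.39, adjusted p = 0.786). Cacnb2 (chr2:14603088-14987908, plus strand), the main beta subunit of the heart, was at 1.44, 0.612 and 0.630 TPM in WT and at 0.832, 0.804 and 0.965 TPM in KO, with means of 0.893 and 0.867 TPM. WT 4 was the highest sample and the KO values lay within the WT range.

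**Figure D3:**
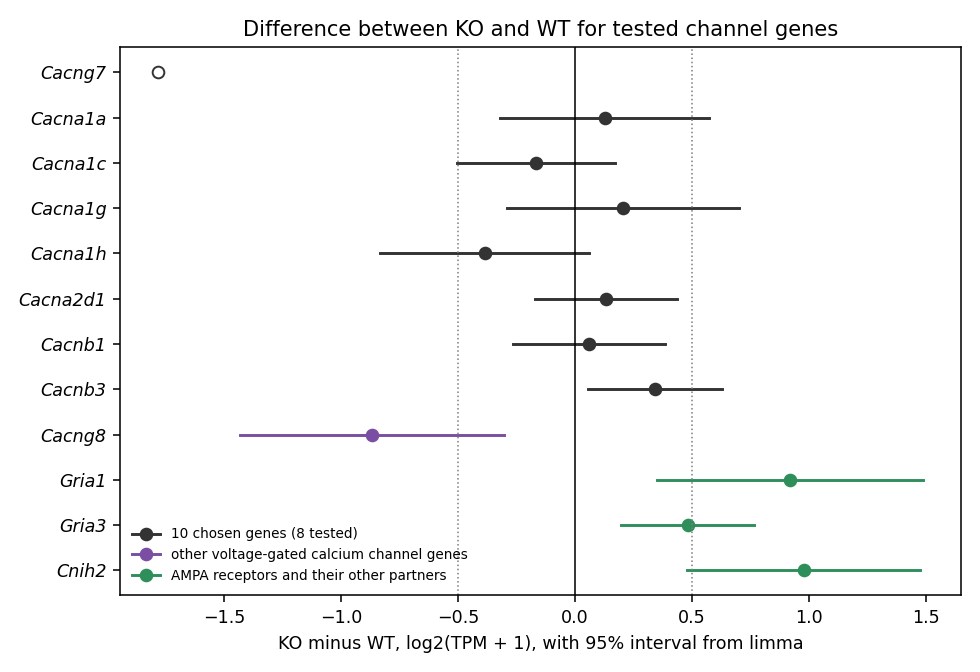
Difference KO minus WT on the log2(TPM + 1) scale (x axis) for the 8 tested genes of the set, for Cacng8 and for 3 tested genes of AMPA receptors and their partners (y axis), with lines for the 95% interval from limma and dotted lines at -0.5 and 0.5. Cacng7 (open circle) is drawn without an interval because it was chosen for its fall; the intervals of Cacnb3, Cacng8, Gria1, Gria3 and Cnih2 leave out 0.

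The order of the levels differed between the groups mainly in the place of Cacng7. These levels are per length of all annotated exons of a gene, which can exceed the length of its transcripts, so the order between genes is approximate. In WT cells Cacng7 (33.8 TPM) and Cacnb3 (32.7 TPM) were the highest, and their samples overlapped. They were followed by Cacna2d1, Cacna1c, Cacna1g, Cacnb1, Cacna1h, Cacna1a, Cacnb2 and Cacna2d2, where Cacna1g overlapped in range with Cacnb1, and Cacna1a with both Cacna1h and Cacnb2. In KO cells Cacnb3 (41.5 TPM) and Cacna2d1 (13.7 TPM) came first, and Cacng7 (9.10 TPM) overlapped with Cacna1c (8.61 TPM) in the next places. Further down, Cacna1a stood above Cacna1h, which overlapped with Cacnb2.

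Summed over all genes of a family in the table, gamma expression was lower in KO and the sums of the alpha1 and alpha2delta families differed by less than the SD of a group. The 6 gamma genes summed to 36.2 ± 3.69 TPM in WT and 10.1 ± 0.856 TPM in KO (SD, n = 3 each). The 9 alpha1 genes summed to 17.6 ± 1.03 and 17.4 ± 3.00 TPM and the 4 alpha2delta genes to 12.6 ± 1.94 and 13.8 ± 1.47 TPM. The 4 beta genes summed to 36.8 ± 4.70 and 45.7 ± 2.96 TPM, most of it from Cacnb3. Cacng7 made up 93.3% of the gamma sum in WT and 90.0% in KO. The lower gamma sum therefore restates the fall for which Cacng7 was chosen and is no separate result.

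The makeup of the alpha1 family was compared as shares of its summed TPM within each sample, which no scaling between samples can move. Cacna1c held 58.3%, 53.1% and 53.2% in WT and 47.2%, 51.1% and 49.5% in KO, all KO shares lying below all WT shares. The difference of the means was -5.61 percentage points, with p = 0.1 in a two-sided exact permutation test, the smallest value that 3 samples against 3 can give. Counted in recovered reads, without regard to length, the mean Cacna1c share was 71.4% in WT and 66.5% in KO. The T-type genes Cacna1g, Cacna1h and the low Cacna1i (means of 0.163 TPM in WT and 0.402 TPM in KO) together held 25.5%, 37.4% and 36.1% in WT and 33.3%, 37.7% and 36.9% in KO. Their difference of 2.93 percentage points (exact permutation p = 0.6) rested on WT 4 and turned to -0.81 without it.

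Cacna2d1 held between 98.4% and 98.6% of alpha2delta expression in WT and between 98.5% and 99.1% in KO. Cacnb3 held 84.7%, 91.2% and 90.0% of beta expression in WT and 91.2%, 91.1% and 90.2% in KO, WT 4 being the low one. The differences were 0.44 and 2.23 percentage points, with exact permutation p = 0.2 and p = 0.3. Without WT 4 the Cacnb3 difference was 0.27 percentage points. With 3 samples per group none of the 4 share tests could pass 0.05, and no adjustment over them was made.

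Of 16 other genes of the channel families, 13 were in the table and only Cacng8 was expressed highly enough to be tested. Cacng8 (chr7:3390683-3415648, plus strand) encodes another TARP and is the next tested protein-coding gene after Cacng7 on the chromosome. It stood at 1.11, 3.06 and 2.25 TPM in WT and at 0.645, 0.616 and 0.716 TPM in KO, from 21 to 63 and 11 to 15 reads. All KO samples lay below all WT samples, and the mean went from 2.14 ± 0.984 to 0.659 ± 0.0516 TPM. The difference of -0.87 (SE 0.25, 95% interval -1.43 to -0.31) missed the threshold (adjusted p = 0.0293, and 0.0290 with limma voom). The 12 untested genes had group means under 1 TPM, the highest being Cacna1b, the N-type pore, at 0.679 TPM in WT and 0.836 TPM in KO.

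Around Cacng7, the 5 annotated genes nearest by start on each side were looked at, of which 7 were in the table and 4 tested, with 0 called higher and 0 lower. Myadm, a gene of myeloid differentiation that starts 43875 bp before Cacng7, went from 442 ± 30.1 to 353 ± 19.3 TPM, with all KO samples below all WT samples (difference -0.32, adjusted p = 0.0341). The short transcript Gm44256 inside Cacng7 rested on 0 to 9 reads per sample (difference -0.51, adjusted p = 0.368). Limma voom also called 0 of the 4 tested neighbours, of which Myadm, Gm44256 and Cacng8 are described.

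The tested genes with the profile closest to that of Cacng7 were found by the root mean square difference of log2(TPM + 1), each gene set relative to its WT mean, over the 6 samples. They were Ctnnbl1 (0.0722), Hebp2 (0.0730), Faap24 (0.0750), Nicn1 (0.0855) and Fn3krp (0.0856). Their means went from 24.8 to 6.55 TPM, 10.3 to 2.22 TPM, 13.1 to 3.34 TPM, 17.2 to 4.40 TPM and 7.52 to 1.58 TPM, in that order. They were selected for this likeness over the same samples, and it is a description only.

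AMPA receptor subunits and their other partners were followed because the Cacng7 protein binds these receptors. Of 8 genes on this list, 7 were in the table and 3 tested, and 0 were called, although all 3 lay higher in every KO sample than in any WT sample, as 13.3% of all tested genes did. Gria3, a pore subunit, went from 17.9 ± 2.53 to 25.3 ± 2.27 TPM (difference 0.48, SE 0.13, adjusted p = 0.0194), and limma voom called it at 0.59 (adjusted p = 0.000450). Gria1, another pore subunit, went from 1.47 ± 0.677 to 3.62 ± 0.990 TPM (difference 0.92, SE 0.25, adjusted p = 0.0242). Cnih2, a cornichon that escorts the receptor to the surface, went from 3.64 ± 1.33 to 7.93 ± 1.29 TPM (difference 0.98, SE 0.22, adjusted p = 0.0102). The median of the 3 differences was 0.92, beside -0.07 over all tested genes.

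Other genes of calcium handling were counted by list, beside 10.7% of all tested genes called by limma and 17.1% by limma voom. Of 9 tested regulators of the channels, 0 were called by limma or limma voom, with a median of -0.11 and 1 gene each way at an unadjusted p under 0.05. They included the calmodulins, which sense calcium at the channel, with Calm2 at 662 and 580 TPM and Calm3 at 368 and 373 TPM in WT and KO. Gem, a small GTPase that holds back channels through the beta subunit, went from 7.77 to 10.3 TPM (difference 0.37, adjusted p = 0.0739). Rem2, a GTPase of the same family named here after its values were seen, went from 3.01 to 1.37 TPM with all KO samples below all WT samples (difference -0.75, adjusted p = 0.0168). Of 8 tested intracellular and store-operated channels 0 were called (median 0.15), Itpr3, a calcium release channel of the endoplasmic reticulum, standing at 31.0 and 38.9 TPM, while limma voom called 1 lower, the store sensor Stim1 (difference -0.54, adjusted p = 0.00104). Of 6 tested pumps and exchangers 0 were called (median -0.04), Atp2a2, the pump that refills that store, standing at 226 and 212 TPM, while limma voom called 1 lower, the plasma membrane pump Atp2b4 (difference -0.55, adjusted p = 0.00149).

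Calls on the remaining calcium lists were 1 lower of 7 and 1 lower of 14 tested genes, which is near the 9.03% of all tested genes called lower. Letm1, a mitochondrial inner membrane cation exchanger, was the only call among 7 tested genes of mitochondrial calcium uptake and fell from 13.3 ± 0.807 to 7.41 ± 0.965 TPM (difference -0.77, SE 0.12, adjusted p = 0.00207). Camk1, a calmodulin-dependent kinase, was the only call among 14 tested genes of the calcium response and fell from 14.1 ± 1.34 to 7.55 ± 0.703 TPM (difference -0.82, SE 0.12, adjusted p = 0.00138). Neither was called when all genes of the table were tested. Letm1 was also lost in 5 of the 6 fits that left out a sample, and Camk1 in those without WT 5, KO 3 or KO 10.

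The cells expressed fibroblast markers in both groups, 9 of 9 listed genes being tested with 0 called. Their summed level was 7194 to 11226 TPM in WT and 8219 to 10827 TPM in KO, most of it from Col1a1, Vim and Col1a2. Markers of cells in which these channels are known to be high differed in part. Smooth muscle markers summed to 5682 to 6428 TPM in WT and 4245 to 4973 TPM in KO, and Myh11, smooth muscle myosin, was called lower (25.5 to 11.5 TPM, 1 of 5 tested). Acta2 made up most of the smooth muscle sum, with means of 5653 TPM in WT and 4234 TPM in KO. Neuron markers summed to 62.1 to 85.7 and 87.2 to 118 TPM, and Syn1, a synaptic vesicle protein, was called higher (10.0 to 19.7 TPM, 1 of 4 tested). Most of that sum was Tubb3, neuronal tubulin, whose groups overlapped (58.9 to 79.8 TPM), and Elavl4 lay lower in every KO sample (1.20 to 0.667 TPM, difference -0.39, adjusted p = 0.181). Both were named after their values were seen.

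Skeletal and heart muscle markers, with 3 tested and 0 called, summed to 85.4 to 111 and 74.0 to 92.5 TPM. Des alone made up most of this sum, with means of 90.5 TPM in WT and 76.6 TPM in KO. The untested genes of that list had group means under 1 TPM. Macrophage markers summed to 33.2 to 38.6 and 74.7 to 152 TPM, with Lyz2, lysozyme, called higher (22.5 to 73.6 TPM, 1 of 6 tested) and all 6 tested genes higher in every KO sample than in any WT sample. The same held for 3 of 3 tested epithelial and endothelial markers, while 4 of 5 smooth muscle markers were lower in every KO sample, beside 13.3% higher and 29.9% lower over all tested genes. Epithelial and endothelial markers, with 3 tested and 0 called, summed to 42.1 to 46.7 and 51.4 to 68.6 TPM. Krt18 made up most of this sum, with means of 41.2 TPM in WT and 53.5 TPM in KO, and the untested genes had group means under 1 TPM. No listed marker in the table was at 0 in all samples. The part of these cell type markers in the values of the channel genes was not tested. Limma voom also called Myh11, Syn1 and Lyz2, but none of these 3 was called when all genes of the table were tested, and Syn1 was not called without KO 3 or without KO 7.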

How the data were processed

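RNA-seq was analysed for 3 WT and 3 KO samples, grouped by their titles. The authors aligned reads to mm10; the study's methods name STAR, and the submitters' processing notes list Bowtie 0.12.2. The authors deposited TPM for 26898 genes, together with a log2 fold change and an adjusted p-value per gene; these last columns, the authors' own comparison, were not used. All identifiers matched GENCODE release M21. TPM multiplied by exon length and divided by the step that 1 read is worth in that sample, estimated from low genes, gave whole reads for 100.0% of the 15490 to 16626 values checked per sample (tolerance 0.05).

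KO was compared with WT in log2(TPM + 1) by limma (version 3.58.1, under R 4.3.3), fitting a variance trend but no covariate, over 14799 genes averaging 1 TPM or more in WT or KO, with Benjamini-Hochberg adjustment over all of them. Thresholds were those of the study. Count tests such as the study's own were not run on TPM. Family shares were compared by exact permutation tests. The fit was also run on simulated data, and no result given here rests on that run. Python 3.11.15, pandas 2.3.3 and numpy 2.4.6 served for tables and sequences.

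The 10 genes and the other gene lists were chosen with earlier results of these data known. From each list, the called genes and up to 4 others with the highest TPM could be named, with Kansl1, the 5 nearest genes on each side of Cacng7 and the 5 closest profiles; a few items that this rule would name are not reported here. Alternatives were another filter, pseudocount, variance model, scaling, threshold, limma voom on recovered reads and leaving out each sample.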

Additional observations from a re-analysis of the deposited data

How the results depend on the processing

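Over the alternatives that gave a value, 0 of the members other than Cacng7 were called, and none of the 8 members averaging 1 TPM or more in WT or KO over all samples changed sign. The sign was not followed for Cacnb2 and Cacna2d2. Some of the small differences nearly vanished when a sample was left out. That of Cacna1g went from 0.21 to 0.0088 without WT 4. For Cacna1c it went from -0.17 to -0.0030 without KO 3, and for Cacna1a from 0.13 to 0.0035 without WT 5. The difference of Cacng7 ranged from -1.88 with a pseudocount of 0.1 TPM to -1.68 with median-of-ratios scaling. The counts over all tested genes moved more. From 242 higher calls, the number went to 55 when all genes were tested, 473 with median-of-ratios scaling, 573 with limma voom, 694 at an adjusted p under 0.05, and 84 to 252 when a sample was left out. From 1337 lower calls, it went to 286, 1441, 1909, 2453 and 617 to 938 under the same changes. The T-type share difference of 2.93 percentage points turned to -0.81 without WT 4, within a range of -0.81 to 5.14 over the samples left out. The adjusted p of Cacnb3 ranged from 0.0159 to 0.192, that of Cacna1h from 0.0430 to 0.437 and that of Cacna2d1 from 0.0438 to 0.813.

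A filter of 10 TPM left Cacng7, Cacnb3 and Cacna2d1 among the members and gave no value for the others. No paired analysis was possible because no replicate number occurs in both groups. Depth limits the genes near 1 TPM, and Cacna2d2 most of all. The causes of these changes were not tested.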
